A study of Mus musculus with 3 samples.

Results

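ATF4 is a transcription factor of the integrated stress response, and with it were examined 33 other genes, namely 16 genes described as its targets or partners and 17 aminoacyl-tRNA synthetases of the cytosol. Their probes were selected by symbol alone, as the gene probes whose gene name on the microarray was that of a member. The members, chosen with earlier results of these data known, made up 34 of 26840 genes with a symbol. The first list, called ATF4 and its targets, held the transcription factors *Atf4*, *Atf5*, *Ddit3* and *Cebpg*, the stress-regulated genes *Trib3*, *Chac1*, *Sesn2*, *Nupr1* and *Vldlr*, and the biosynthetic enzymes *Asns*, *Psat1*, *Phgdh*, *Psph*, *Shmt2*, *Mthfd2*, *Aldh18a1* and *Pycr1*. The second list held the synthetases *Aars*, *Cars*, *Dars*, *Eprs*, *Gars*, *Hars*, *Iars*, *Kars*, *Lars*, *Mars*, *Nars*, *Rars*, *Sars*, *Tars*, *Vars*, *Wars* and *Yars*. RNA came from RAW macrophages, an immortalized mouse macrophage line, so that 1 line stands for the cell type. Cells were given LPS alone (LPS), *L. rhamnosus* CRL1505 before LPS (CRL1505 + LPS) or *L. plantarum* CRL1506 before LPS (CRL1506 + LPS). The lactobacilli were used at 50000000 cells/mL for 24 h and washed away, and LPS, the TLR4 agonist that all 3 conditions shared, at 50 ng/mL. The duration of LPS is 12 h in the design text and 3 h in the descriptions of the samples. Each condition had 1 array in 1 colour, so without replicates no test was run and no p-value is printed. CRL1506 + LPS was hybridised on the slide of the LPS array and scanned together with it. The CRL1505 + LPS array came from a different slide and scan, so that for CRL1505 the slide and the treatment cannot be told apart. Arrays of non-stimulated macrophages were not analysed here.

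The integrated stress response begins when a kinase such as PERK, GCN2, PKR or HRI phosphorylates the alpha subunit of the initiation factor eIF2, upon shortage of amino acids, misfolded protein in the endoplasmic reticulum, double-stranded RNA or lack of heme. General translation then slows while the *Atf4* mRNA is translated better, and the ATF4 protein, paired with C/EBP factors, activates genes for amino acid synthesis and uptake, for the charging of tRNA and for the feedback that ends the response. Since ATF4 is set largely at translation, a microarray follows its mRNA and those of its targets but not the protein. Aminoacyl-tRNA synthetases attach each amino acid to its tRNA. Several of them sit in a multi-synthetase complex of the cytosol, and a separate nuclear-encoded set serves the mitochondria.

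The C/EBP-ATF response element, through which ATF4 acts, was the only motif searched, as the letters TGATGNAA on both strands of the RefSeq promoter windows (build GRCm38.p6), which run from 250 bases before each annotated start to 50 bases after it. Windows were found for 27 of the 34 members and not for *Cars*, *Hars*, *Lars*, *Nars*, *Rars*, *Vars* and *Wars*. The letters occurred in the windows of 11 of these 27 members, compared to 4.5% of all 27025 genes in the table (4.0% of 32851 windows). In ATF4 and its targets they were in 6 of 20 windows, those of *Trib3*, *Chac1*, *Asns*, *Pycr1*, *Nupr1* and 1 window of *Vldlr*. Among the cytosolic synthetases they were in 5 of 10 windows (*Aars*, *Gars*, *Iars*, *Tars* and *Yars*), and among the mitochondrial synthetases in 0 of 15. The 5 windows shown are that of *Pycr1*, which passed 2-fold on the arrays, those of *Asns* and *Trib3*, the asparagine synthetase and a feedback gene of the response, that of *Aars*, the only member with a pair of matches, and that of *Tars*. They lie at chr11:120643699-120643998 (*Pycr1*, minus strand), chr6:7693160-7693459 (*Asns*, minus), chr2:152344011-152344310 (*Trib3*, minus), chr8:111033592-111033891 (*Aars*, plus) and chr15:11399609-11399908 (*Tars*, minus), and capitals mark the match.
Pycr1: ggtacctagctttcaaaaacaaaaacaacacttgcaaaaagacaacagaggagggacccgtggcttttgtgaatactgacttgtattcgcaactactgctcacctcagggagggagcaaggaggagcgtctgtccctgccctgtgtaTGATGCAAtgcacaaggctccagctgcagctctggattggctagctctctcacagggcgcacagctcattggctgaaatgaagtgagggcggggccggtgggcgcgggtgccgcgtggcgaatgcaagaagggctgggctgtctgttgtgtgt
Asns: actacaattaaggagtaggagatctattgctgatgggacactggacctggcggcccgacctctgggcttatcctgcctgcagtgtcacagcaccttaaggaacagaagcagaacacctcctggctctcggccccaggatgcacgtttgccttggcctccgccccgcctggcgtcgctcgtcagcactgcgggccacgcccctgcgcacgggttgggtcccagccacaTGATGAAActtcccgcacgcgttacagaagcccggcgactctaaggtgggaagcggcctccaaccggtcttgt
Trib3: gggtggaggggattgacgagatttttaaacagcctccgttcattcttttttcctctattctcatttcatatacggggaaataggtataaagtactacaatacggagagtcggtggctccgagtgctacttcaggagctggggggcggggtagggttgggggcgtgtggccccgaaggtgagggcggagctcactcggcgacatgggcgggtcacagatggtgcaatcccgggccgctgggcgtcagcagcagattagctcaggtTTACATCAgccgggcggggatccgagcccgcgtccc
Aars: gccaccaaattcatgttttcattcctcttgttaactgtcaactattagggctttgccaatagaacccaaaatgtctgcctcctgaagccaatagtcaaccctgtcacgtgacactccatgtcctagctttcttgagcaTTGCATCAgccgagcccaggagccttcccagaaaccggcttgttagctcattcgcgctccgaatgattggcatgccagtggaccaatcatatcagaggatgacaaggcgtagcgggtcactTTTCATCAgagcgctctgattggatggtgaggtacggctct
Tars: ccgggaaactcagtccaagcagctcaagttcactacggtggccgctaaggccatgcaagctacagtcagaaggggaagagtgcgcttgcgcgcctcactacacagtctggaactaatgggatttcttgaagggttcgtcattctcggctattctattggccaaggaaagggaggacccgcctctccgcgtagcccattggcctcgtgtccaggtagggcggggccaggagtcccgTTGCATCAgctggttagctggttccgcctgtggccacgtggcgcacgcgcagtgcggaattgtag
Counted from 1 at the start, with negative positions before it, the first base of the match stood at -103 in *Pycr1*, -23 in *Asns*, 15 in *Trib3*, -112 and 10 in *Aars* and -15 in *Tars*. A match is a description of the letters and not of binding, and the windows of *Atf5*, *Ddit3*, *Cebpg* and *Eprs* held none.

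Levels are given as the log2 processed signal minus that of the array's 75th percentile over gene spots, taken from the brightest probe of a gene, so that 0 is the signal at that percentile. A log2 ratio is the difference of that level between 2 arrays. The members were read by 65 probes, with 21 members having more than 1, and 32 of the 34 members were well above background on all arrays. *Vldlr*, a lipoprotein receptor, was well above background on none of the arrays. *Phgdh*, the first enzyme of serine synthesis, was so only with CRL1506 + LPS. Over repeated spots of a probe, the SD of a log2 ratio to LPS had a median of 0.048 for CRL1505 and 0.044 for CRL1506. Between the probes of a gene, the median SD over genes was 0.23 and 0.22, respectively, and is called the SD between probes below. These SDs describe single hybridisations and hold no biological variation. The arrays read RNA of whole cultures, so a level shared by all cells and a change in the share of cells with the transcript cannot be told apart.

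**Figure D1:**
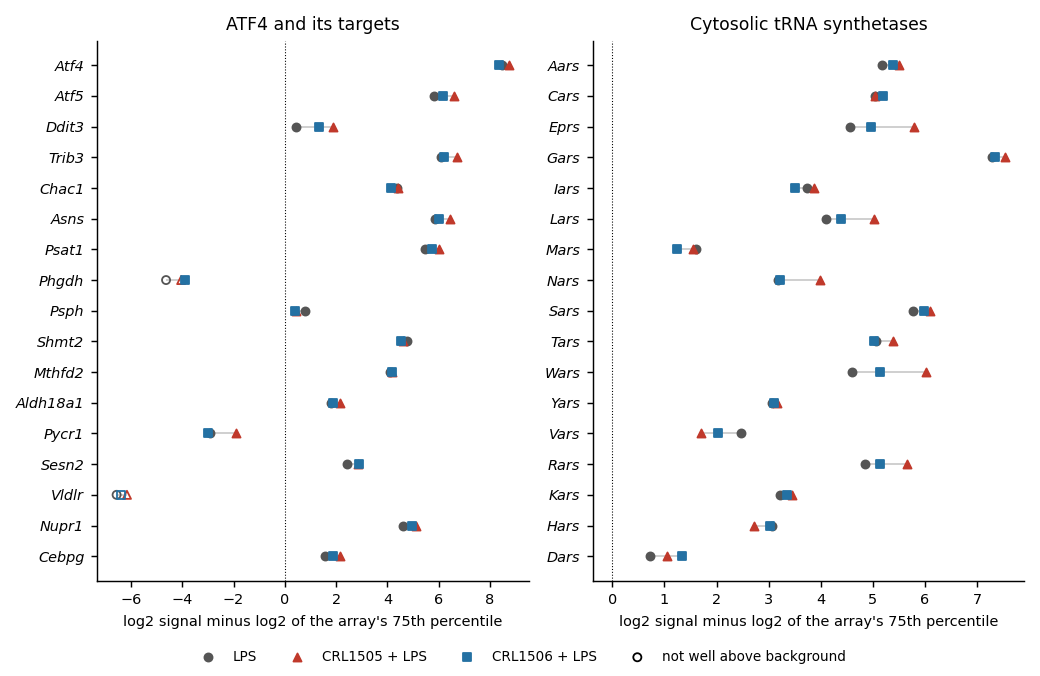
Level of each member (rows) on the 3 arrays, as log2 processed signal minus log2 of the array's 75th percentile; the dotted line is that percentile, filled symbols are well above background, open symbols are not, and levels of different genes come from different probes and are not to be compared. *Ddit3*, *Eprs*, *Lars*, *Nars*, *Rars* and *Wars* stand furthest to the right with CRL1505 + LPS, *Pycr1* is higher on that array alone, and *Vldlr* is open on all arrays.

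Most members had higher transcript levels in macrophages given *L. rhamnosus* CRL1505 before LPS than in those given LPS alone, by less than 2-fold in most cases. Of the 32 members compared, 26 had a log2 ratio above 0, while 50.7% of all genes did. Their median log2 ratio was 0.33 beside 0.01 for all 15606 genes compared. The ratio was above the SD between probes in 21 members, below its negative in 3 and within it in 8. At least 2-fold higher were 4 members, *Ddit3*, *Wars*, *Eprs* and *Pycr1*, beside 9.93% of all genes, and none was at least 2-fold lower, beside 8.41%. Scaling to spike-in probes instead lowers every log2 ratio by 0.52 for CRL1505 and 0.13 for CRL1506, and a shift by the array medians adds 0.30 and -0.20, so that ratios smaller than these change sign while their place relative to all genes does not.

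With *L. plantarum* CRL1506 the differences were smaller. Of the 33 members compared, 23 had a log2 ratio to LPS above 0, while 42.7% of all genes did, and the median was 0.13 beside -0.06 for all 16281 genes. No member was at least 2-fold higher, beside 5.67% of all genes, or at least 2-fold lower, beside 3.53%. The ratio was above the SD between probes in 12 members, below its negative in 6 and within it in 15. Both strains were set against the same LPS array, so their ratios are not independent.

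Among the transcription factors, *Ddit3* differed most. It codes for CHOP, a C/EBP-family factor that ATF4 induces and that can promote cell death under lasting stress. Its level was 0.45 with LPS, 1.89 with CRL1505 + LPS and 1.33 with CRL1506 + LPS. Both strains thus lay above LPS alone, CRL1505 by a log2 ratio of 1.44 (2.72-fold) and CRL1506 by 0.88 (1.84-fold). The former exceeded 94.4% and the latter 93.0% of the genes compared. Under all settings tried the ratios ranged from 0.83 to 1.74 and from 0.68 to 0.96, respectively. The probe lay at chr10:126732518-126732821 (mm9), and a dimmer *Ddit3* probe for another transcript gave 0.22 for CRL1505 and 1.02 for CRL1506.

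*Atf4* itself, which had levels of 8.46 with LPS, 8.75 with CRL1505 + LPS and 8.36 with CRL1506 + LPS, differed little. Its log2 ratio was 0.29 for CRL1505, from -0.23 to 0.58 over the settings tried, and -0.10 for CRL1506. The other *Atf4* probe gave 0.70 and -0.17. *Atf5*, a related factor that is also translated better under stress, had levels of 5.83, 6.61 and 6.16 in the same order. Its ratio was 0.78 for CRL1505 and 0.34 for CRL1506, and stayed above 0 for both under all settings. The other *Atf5* probe gave 1.05, past 2-fold, and 0.42. *Cebpg*, a partner of ATF4 in dimers, stood at 1.56, 2.14 and 1.87, with ratios of 0.58 and 0.31. All 4 transcription factors were above LPS with CRL1505, *Atf4* not so under spike-in scaling, and 3 of them with CRL1506.

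The stress-regulated genes differed by less. *Trib3*, a pseudokinase that binds ATF4 and dampens its activity, had levels of 6.10 with LPS, 6.72 with CRL1505 + LPS and 6.20 with CRL1506 + LPS. The log2 ratio was 0.62 with CRL1505 and 0.11 with CRL1506. *Nupr1*, a small stress-induced chromatin protein, had ratios of 0.49 and 0.32, but its probe for another transcript gave -0.70 and 0.50. *Sesn2*, a leucine sensor that restrains mTORC1, had nearly the same value with both strains, 0.40 with CRL1505 and 0.47 with CRL1506. *Chac1*, which degrades glutathione, was at 0.04 and -0.23 and so did not go with the others.

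The biosynthetic enzymes did not form a uniform group. *Asns*, the asparagine synthetase, had levels of 5.84 with LPS, 6.43 with CRL1505 + LPS and 6.0 with CRL1506 + LPS, which made log2 ratios of 0.58 and 0.15. The other *Asns* probe gave 0.64 and -0.09, so that CRL1505 stood above LPS by both probes while the sign for CRL1506 depended on the probe. *Pycr1*, the last enzyme of proline synthesis, had levels of -2.94, -1.90 and -3.01 in the same order. It was 2.06-fold higher with CRL1505 (log2 ratio 1.04) and differed from LPS by -0.07 with CRL1506. This signal was dim, at 138.5 units on the CRL1505 + LPS array, the second *Pycr1* probe was not well above background, and the ratio ranged from 0.52 to 1.34 over the settings. *Aldh18a1*, which starts proline synthesis from glutamate, had ratios of 0.34 and 0.08.

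In serine and one-carbon metabolism the median log2 ratio of the 4 enzymes compared was -0.03 for CRL1505. *Psat1*, the aminotransferase of serine synthesis, was at 0.52 for CRL1505 and 0.26 for CRL1506 by its brightest probe. Its other measured probe gave 0.16 and 0.36. Over the settings the value for CRL1505 ranged from -0.0012 to 0.81. *Psph*, the phosphatase that completes serine, was at -0.36 and -0.39. *Shmt2* and *Mthfd2*, the mitochondrial enzymes that pass the carbon of serine to folate, differed from LPS by -0.15 and 0.09 with CRL1505 and by -0.22 and 0.08 with CRL1506. *Phgdh* could not be compared for CRL1505, and for CRL1506 its ratio was at least 0.58. On a list of 10 genes of serine and mitochondrial folate metabolism, which contains these 5, 7 were compared for CRL1505 and 9 for CRL1506. None was 2-fold in either direction. Of all genes, 9.93% were higher and 8.41% lower for CRL1505, and 5.67% and 3.53% for CRL1506.

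Among the synthetases, *Wars* and *Eprs* passed 2-fold with CRL1505. *Wars*, the tryptophanyl-tRNA synthetase, is also known as an interferon-induced gene. Its level was 4.60 with LPS, 6.01 with CRL1505 + LPS and 5.13 with CRL1506 + LPS. CRL1505 thus gave a log2 ratio of 1.42 (2.67-fold) and CRL1506 one of 0.53, and both were above 0 under all settings. The brightest probe lay at chr12:110098245-110098304 (mm9), and the other, within the same gene, gave 1.07 and 0.08. Hence both probes were over 2-fold for CRL1505, whereas the value for CRL1506 was small by 1 of them.

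*Eprs* codes for the synthetase that charges both the glutamic acid and the proline tRNA, and belongs to the multi-synthetase complex. It had levels of 4.56 with LPS, 5.79 with CRL1505 + LPS and 4.97 with CRL1506 + LPS by its brightest probe (chr1:187252009-187252068, mm9). These made log2 ratios of 1.23 (2.34-fold) and 0.40. All 5 *Eprs* probes gave a ratio above 0 for both strains, from 0.42 to 1.23 for CRL1505 and from 0.40 to 0.72 for CRL1506, and the brightest was the only one past 2-fold. *Eprs* was therefore higher with both strains, and its place above 2-fold rested on the choice of probe.

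*Lars*, *Rars* and *Nars*, for leucine, arginine and asparagine, came next for CRL1505. *Lars* stood at 4.10 with LPS, 5.03 with CRL1505 + LPS and 4.39 with CRL1506 + LPS. *Rars* stood at 4.85, 5.65 and 5.13, and its 3 probes agreed, with log2 ratios from 0.76 to 0.95 for CRL1505 and from 0.28 to 0.42 for CRL1506. *Nars* stood at 3.19, 3.98 and 3.21, so that only the CRL1505 + LPS array departed from LPS, by 0.80. These ratios, like that of *Lars* (0.93), stayed above 0 for CRL1505 under all settings.

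A further 8 synthetases had ratios between 0.10 and 0.34 for CRL1505, and these were *Aars* (0.34), *Tars* (0.33), *Sars* (0.33), *Dars* (0.32), *Gars* (0.24), *Kars* (0.22), *Iars* (0.15) and *Yars* (0.10). Each of them was below 0 when the arrays were scaled to spike-in probes. The other measured *Yars* probes gave -0.27 and, for another transcript, -0.53 for CRL1505. Around the *Tars* spot, 7 of the 20 nearest spots on the LPS array were uneven, and the brightest probe of no other member had 5 or more on any array. An *Eprs* probe used in the range above had 6 on the CRL1506 + LPS array. *Dars*, the aspartyl-tRNA synthetase, had the largest ratio to LPS of the synthetases with CRL1506, at 0.62, with levels of 0.72, 1.04 and 1.34. *Cars* and *Mars* were at -0.01 and -0.06 for CRL1505, and *Mars* at -0.38 for CRL1506. The other *Cars* probes gave 0.25 and 0.32 for CRL1505.

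*Vars* and *Hars* went the other way. *Vars*, the valyl-tRNA synthetase, had levels of 2.47 with LPS, 1.71 with CRL1505 + LPS and 2.03 with CRL1506 + LPS. It was thus below LPS with both strains, by log2 ratios of -0.76 (CRL1505) and -0.43 (CRL1506), and below 0 under all settings. *Hars* was at -0.34 for CRL1505 and -0.03 for CRL1506. The 7 members that belong to the multi-synthetase complex had median ratios of 0.32 (CRL1505) and 0.28 (CRL1506), and the other 10 synthetases 0.29 and 0.05. Complex genes outside the members, such as *Qars*, are not in these medians.

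**Figure D2:**
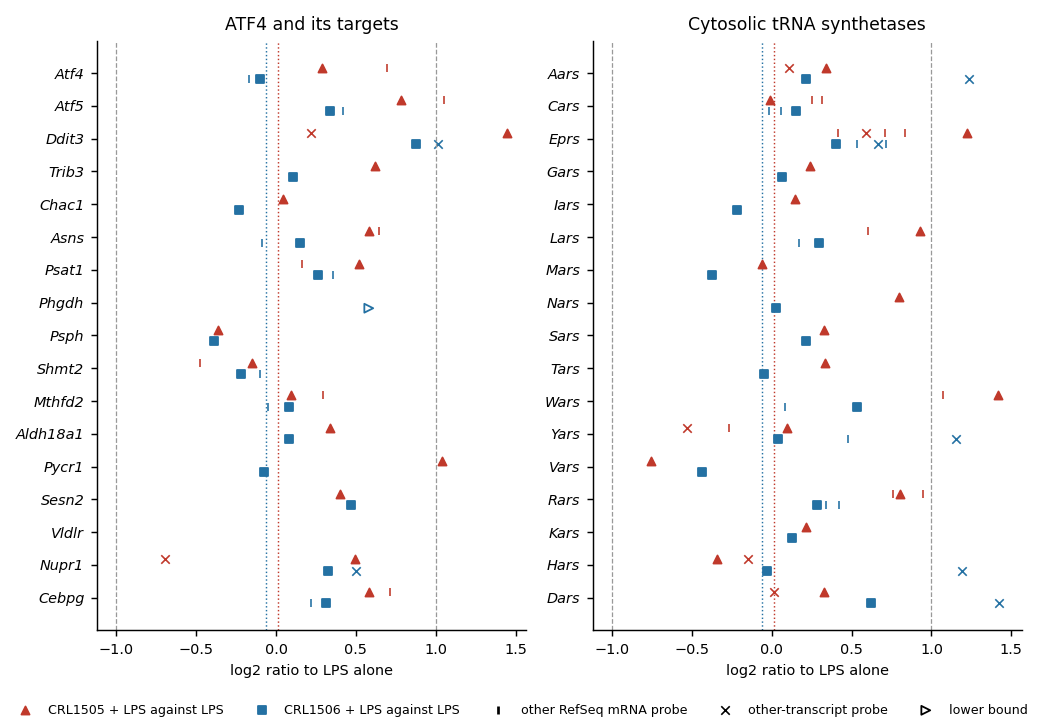
Log2 ratio to LPS alone (x axis) of each member for CRL1505 + LPS (triangles) and CRL1506 + LPS (squares) by the brightest probe, with the gene's other measured probes as bars (RefSeq mRNA) and crosses (other transcripts); an open arrowhead is a lower bound, dashed lines are 2-fold and coloured dotted lines the median of all genes. Triangles lie past 2-fold for *Ddit3*, *Pycr1*, *Eprs* and *Wars*, no square does, and *Vars* is left of 0 for both strains; scaling to spike-in probes would move triangles left by 0.52 and squares by 0.13.

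The other genes of the pathway were taken as whole lists. For CRL1505, mitochondrial synthetases lay on the other side of the median of all genes from their cytosolic counterparts. Of these 17 genes, 7 had a log2 ratio above 0 and the median was -0.18, against 13 of 17 and 0.32 for the cytosolic list. None of them was 2-fold in either direction with either strain. Of all genes, 9.93% were higher and 8.41% lower for CRL1505, and 5.67% and 3.53% for CRL1506. The ratios of the mitochondrial list ran from *Mars2* (-0.92) to *Fars2* (0.71) for CRL1505. The 8 other cytosolic synthetase and complex genes had a median of -0.03 for CRL1505, with *Tarsl2*, a second threonyl-tRNA synthetase gene, at -1.18 as the only one past 2-fold. Both the mitochondrial list and this one lay below the median of all genes for CRL1505 under all 13 settings including that reported. Relative to that median they ran from -0.32 to -0.01 and from -0.17 to -0.04, respectively. The mitochondrial list thus nearly met it under 1 setting, the mean over probes. The cytosolic list lay above it by 0.14 to 0.32.

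Of 20 further genes known to respond to ATF4, 19 were compared for CRL1505 and 11 had a ratio above 0, with a median of 0.21. At least 2-fold higher were 5 genes and at least 2-fold lower was 1, beside 9.93% and 8.41% of all genes. The higher ones were *Cth* (log2 ratio 2.15), which makes cysteine from cystathionine, *Fgf21* (at least 1.71), a stress hormone, *Tcea1* (1.47), *Cyb5r1* (1.42) and *Ppp1r15a* (1.03). *Cth* had levels of 2.38 with LPS, 4.54 with CRL1505 + LPS and 3.32 with CRL1506 + LPS. *Cbs*, which makes the cystathionine that *Cth* cleaves, was at -1.11, so neighbouring steps of the same route stood on opposite sides of LPS. With CRL1506 no gene of this list was 2-fold, beside 5.67% of all genes higher and 3.53% lower. Of the 18 compared, 6 were above 0, while 42.7% of all genes were. The list median was -0.23, which remained below the median of all genes under each setting. For CRL1506 the members and this list thus lay on opposite sides of that median, although both are described as responsive to ATF4.

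Among 10 amino acid transporters compared for CRL1505, 2 were at least 2-fold higher and 1 lower, beside 9.93% and 8.41% of all genes. The list median was 0.14. *Slc7a2*, a carrier of arginine and lysine, had levels of -0.13 with LPS, 2.20 with CRL1505 + LPS and 0.11 with CRL1506 + LPS, a log2 ratio of 2.33 for CRL1505. *Slc1a4*, which carries alanine and serine, was at 1.36. *Slc7a11*, the cystine carrier that is among the well known targets of ATF4, was at -1.23 for CRL1505 and -0.04 for CRL1506. None of the 11 transporters compared for CRL1506 was 2-fold, beside 5.67% of all genes higher and 3.53% lower.

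Upstream of ATF4, the 4 eIF2alpha kinases did not move together. For CRL1505 the log2 ratio was 0.63 for *Eif2ak2* (PKR), 0.24 for *Eif2ak1* (HRI), -0.27 for *Eif2ak3* (PERK) and -0.58 for *Eif2ak4* (GCN2). The phosphatase subunits that reverse the phosphorylation were both 2-fold higher, *Ppp1r15a* (GADD34) at 1.03 and *Ppp1r15b* at 1.12. No other of the 12 genes compared on the kinase and phosphatase list was 2-fold, beside 9.93% of all genes higher and 8.41% lower. *Ppp1r15a* is also among the 20 further genes above. With CRL1506, *Ppp1r15a* was at 0.54 and *Ppp1r15b* at -0.13. The XBP1 and ATF6 arms of the unfolded protein response, which run beside PERK and ATF4, had a median of 0.35 for CRL1505 and -0.18 for CRL1506 over 15 genes. *Dnajb9* (2.19) and *Xbp1* (1.32) were 2-fold higher with CRL1505, beside 9.93% of all genes, and *Hspa5*, the chaperone BiP, was at 0.98. With CRL1506 none of these 15 was 2-fold, beside 5.67% of all genes higher and 3.53% lower, and 4 were above 0, beside 42.7%.

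**Figure D3:**
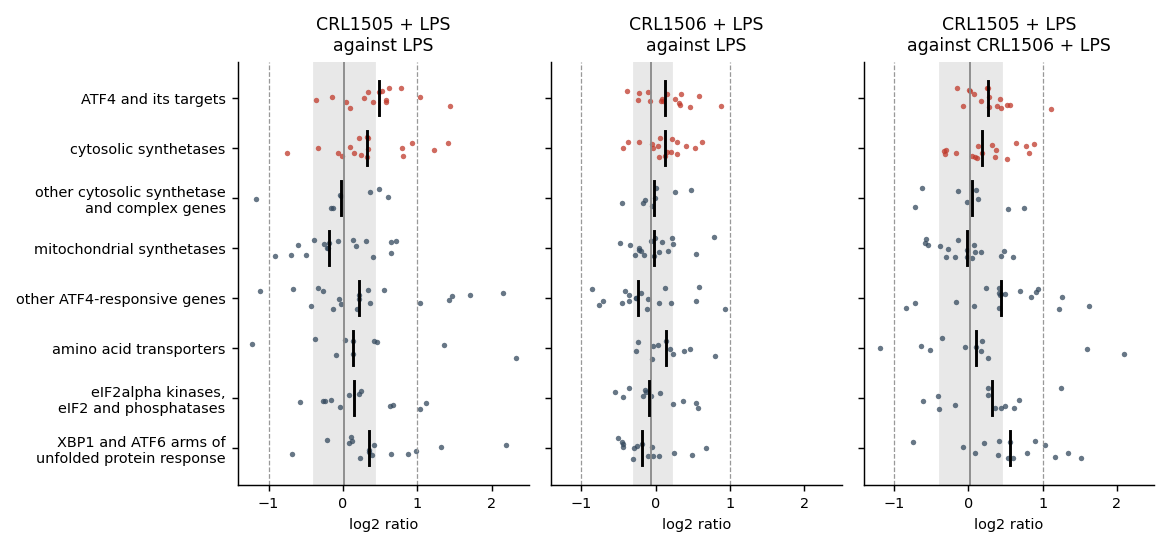
Log2 ratios (x axis) of the genes of each list in the 3 comparisons, 1 point per gene with vertical scatter for visibility; thick bars are list medians, red points the members, the grey line and band the median and quartiles of all genes compared, and dashed lines 2-fold. For CRL1505 + LPS against LPS the medians of ATF4 and its targets (0.49) and the cytosolic synthetases (0.32) lie right of the grey line and that of the mitochondrial synthetases (-0.18) left of it; scaling to spike-in probes, which moves the grey line to -0.49, put the first 2 medians at -0.03 and -0.19.

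When the strains were set against each other, 27 of 33 members had a higher level with CRL1505 + LPS than with CRL1506 + LPS, while 51.6% of all genes did. The median log2 ratio was 0.26 beside 0.03 for all genes. *Pycr1* was the only member at least 2-fold higher (1.11, or 2.16-fold), beside 9.02% of all genes, and none was at least 2-fold lower, beside 7.46%. After it came *Wars* (0.88), *Eprs* (0.82, but from -0.08 to 0.30 by its other probes), *Nars* (0.77) and *Lars* (0.64). Lower with CRL1505 than with CRL1506 were *Vars* (-0.32), *Hars* (-0.31), *Dars* (-0.30), *Cars* (-0.17, but 0.19 and 0.33 by its other probes), *Phgdh* (a bound of -0.15) and *Sesn2* (-0.07). The XBP1 and ATF6 list had a larger median in this comparison, 0.57. Of its 15 genes, *Dnajb9*, *Xbp1*, *Manf* and *Hspa5* were 2-fold higher, beside 9.02% of all genes. The further genes known to respond to ATF4 also had a larger median, 0.44. Here 15 of 18 were above 0 and 3 were 2-fold higher. Of the members, the synthetases had a median of 0.18, which was below 0 with quantile normalization (-0.11), cyclic loess (-0.09), the deposited table (-0.05), the 75th percentile of probes detected on all arrays (-0.02) and spike-in scaling (-0.21).

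Probes for transcripts other than RefSeq mRNAs gave another picture of the members with CRL1506. Such probes were measured for 7 members and were not the brightest of their gene in any. For CRL1506 + LPS against LPS, 5 of the 7 were at least 2-fold higher, *Dars* (1.42), *Aars* (1.23), *Hars* (1.19), *Yars* (1.16) and *Ddit3* (1.02), followed by *Eprs* (0.67) and *Nupr1* (0.50). The brightest RefSeq mRNA probes of these genes gave 0.62, 0.21, -0.03, 0.04, 0.88, 0.40 and 0.32 in the same order. A second RefSeq mRNA probe of *Yars* gave 0.48, and 3 more of *Eprs* gave 0.42, 0.53 and 0.72, so that the kinds of probe were not apart in *Eprs*. For CRL1505 none of the 7 was 2-fold, and their median was 0.01. As a result, *Ddit3* was higher with CRL1505 than with CRL1506 by its RefSeq mRNA probe (0.57) and lower by the other (-0.80). The members were not alone in this. Over all genes with both kinds of probe, 24.9% of 3249 other-transcript probes were at least 2-fold higher with CRL1506, compared with 2.2% of 6798 RefSeq mRNA probes, and with CRL1505 the shares were 8.4% and 6.0%. This division by probe was made after the values were seen, and its cause was not tested.

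**Figure D4:**
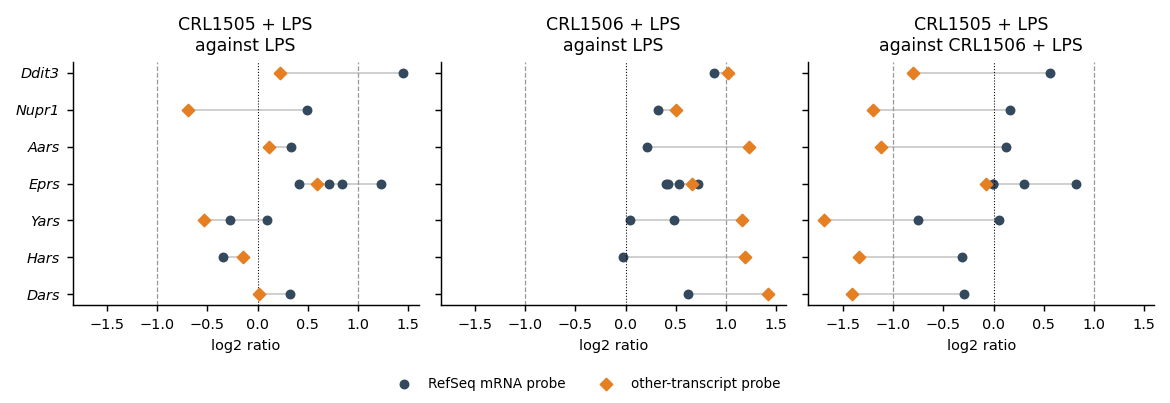
Log2 ratios (x axis) of every measured probe of the 7 members that have a measured probe for another transcript, in the 3 comparisons; circles are RefSeq mRNA probes, diamonds other-transcript probes, grey lines join the probes of a gene and dashed lines are 2-fold. In CRL1506 + LPS against LPS, 5 of 7 diamonds lie past 2-fold and no circle does.

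The size of the list medians depended on how the arrays were scaled, while their place relative to all genes for CRL1505 did not change sign. The median of all genes in CRL1505 + LPS against LPS was 0.01 as reported, 0.33 with a shift by the array medians and -0.49 when they were scaled to 5 spike-in probes. ATF4 and its targets followed, with 0.49, 0.79 and -0.03, and stayed 0.31 to 0.49 above all genes under the settings tried. For CRL1506 the same list had 0.13, -0.07 and -0.01 and lay 0.07 to 0.35 above all genes, and the synthetases lay 0.05 to 0.28 above them.

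**Figure D5:**
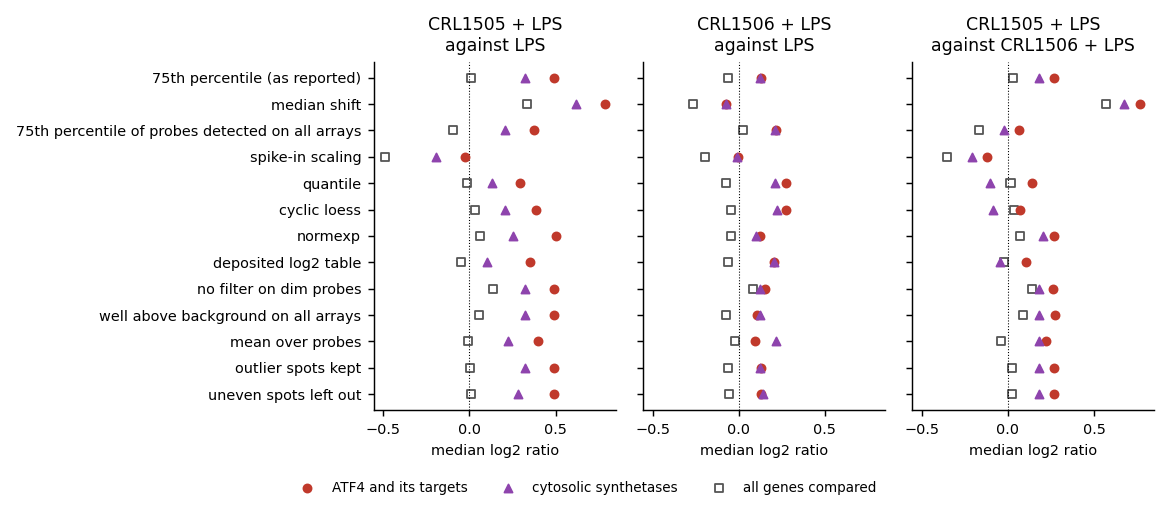
Median log2 ratio (x axis) of ATF4 and its targets, of the cytosolic synthetases and of all genes compared, under each processing setting (rows), in the 3 comparisons. The symbols of both lists lie right of the open squares in every row for CRL1505 + LPS and for CRL1506 + LPS against LPS, although both lie left of 0 with spike-in scaling, and with the median shift for CRL1506 + LPS. For CRL1505 against CRL1506 the synthetases lie left of the squares with quantile normalization, cyclic loess and the deposited table.

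Members with and without the response element letters had like medians for CRL1505. The 10 members with a match that could be compared had a median log2 ratio of 0.33 for CRL1505, and the 15 with a window but no match had 0.33 as well. The 7 members without a window, from *Vars* (-0.76) to *Wars* (1.42) for CRL1505, were in neither group. For CRL1506 the medians with and without a match were 0.05 and 0.24, and for CRL1505 against CRL1506 they were 0.32 and 0.18. *Pycr1*, with its match at -103, was the only member with the letters past 2-fold for CRL1505.

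The 75th percentile of the signal lay between 517.0 (CRL1505 + LPS) and 743.1 (LPS), and 48.5% to 55.3% of gene spots were well above background. All 7 macrophage markers on the microarray were well above background on all arrays, such as *Cd68* (6.30, 6.62 and 6.34) and *Lyz2* (8.40, 8.40 and 8.15). *Fcgr1* (2.40) and *Adgre1* (2.27) were 2-fold higher and *Csf1r* (-1.47) 2-fold lower with CRL1505 than with LPS, and with CRL1506 they were at 0.95, 1.0 and -0.87, *Adgre1* again past 2-fold. Of the markers of other cells, *Cd79a*, *Cd3g*, *Cd8a*, *Krt8*, *Krt18*, *Cdh1* and *Pdgfra* were well above background on none of the arrays, whereas *Cd3e*, *Cd4* and *Ms4a1* were on all 3. *Epcam* was well above background with LPS and CRL1506 + LPS and was 2-fold lower with both strains (at most -1.93 with CRL1505, -1.39 with CRL1506). *Col1a2*, below background with LPS, was higher by at least 1.81 with CRL1505 and 0.41 with CRL1506, and *Col1a1*, above background with CRL1506 + LPS alone, by at least 1.85. The part of these markers in the values of the members was not tested.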

How the data were processed

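RNA of RAW macrophages (LPS, CRL1505 + LPS and CRL1506 + LPS, 1 sample each, grouped by the labels) was measured on 1-colour microarrays. The authors deposited Feature Extraction output (version 12.0.3.1 in the files), whose processed signal is a background-subtracted intensity without normalization between arrays. They also deposited a log2 table of all spots, which differed from quantile-normalized normexp values by at most 0.135. Probe positions are on mm9.

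From the log2 processed signal was subtracted that of the array's 75th percentile over gene spots. Outlier spots (241 to 467 per array) were left out, no spot was saturated, repeated spots were averaged and the brightest probe stood for a gene. Probes well above background on neither array were not compared, and with 1 such side the ratio was taken as a bound. The study's 2-fold threshold was kept, and its t-test needs replicates. Members and lists were chosen with earlier results of these data known. All members were named, with levels for those past 2-fold, and from further lists the genes past 2-fold. Added after seeing values were further examples, the roles within lists, the probe kinds and the split by motif.

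Alternatives were other scalings (median, 75th percentile of detected probes, spike-in probes), quantile and cyclic loess normalization, normexp, the deposited table, other filters on dim, outlier and uneven spots (mean over median pixel signal above 0.2 on the log2 scale), the mean over probes and 1.5-fold. Python 3.11.15, pandas 2.3.3, R 4.3.3 and limma 3.58.1 were used, and the procedure was tested on simulated data.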

Additional observations from a re-analysis of the deposited data

How the results depend on the processing

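The counts and medians of members moved with the scaling. For CRL1505 + LPS against LPS, 4 members were at least 2-fold higher as reported, 8 with a shift by the median, 0 with spike-in scaling, 2 with the deposited table (*Ddit3* and *Wars*), 2 with the mean over probes (*Pycr1* and *Wars*) and 9 at 1.5-fold. None was at least 2-fold lower as reported, while 1 was with spike-in scaling (*Vars*) and 1 at 1.5-fold. The median log2 ratio of ATF4 and its targets moved to 0.79 with the shift by the median and to -0.028 with spike-in scaling, and that of the synthetases to 0.62 and -0.19. For CRL1506 + LPS against LPS, the count of members higher went from 0 to 1 with the mean over probes (*Dars*) and 2 at 1.5-fold. For CRL1505 + LPS against CRL1506 + LPS, it went from 1 to 8 with the shift by the median, 5 at 1.5-fold and 0 with the 75th percentile of probes detected on all arrays, spike-in scaling, normexp or the deposited table. The median of ATF4 and its targets moved there to 0.77 with the shift by the median and to -0.12 with spike-in scaling, and that of the synthetases to 0.67 and -0.21. Of single values of members, 1007 moved by less than the SD between probes and 160 by more, of which 64 with the shift by the median and 65 with spike-in scaling. The cause of these differences between scalings was not tested. No paired analysis was possible because each group had 1 array. Dim members, *Phgdh*, *Pycr1* and *Vldlr*, are limited by signal over background, and the number of arrays limits all values.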
